A study of Mus musculus with 10 samples.

Results

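The epidermal growth factor (EGF) family was examined in the jejunum of newborn mice. The 10 members were the ligand genes Areg, Ereg, Hbegf, Btc, Egf, Tgfa and Nrg1 and the receptor genes Egfr, Erbb2 and Erbb3, chosen by gene symbol from the 24062 genes counted in each library. All 10 were found and all 10 passed the filter on low counts (5 or more counts in at least 1 library), as did 17632 genes in all. Both groups were C57BL/6 mice at postnatal day 5. WT mice were wild type. KSR23 mice carried the R23 knock-in, in which both subunits of interleukin-23 (IL-23) are encoded at the ROSA26 locus behind a stop that cre removes, together with cre under the keratin 14 promoter. IL-23 was thus directed to keratinocytes, and the paper found more of its mRNA in skin than in tongue, esophagus or gut. There were 5 libraries in each group, and the question was how gene expression in the intestine differs when this cytokine is made. The labels do not say in words that each library came from a separate mouse, so p-values measure only the spread between these libraries.

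EGF family ligands are made as membrane-anchored precursors, and proteases of the ADAM family cut most of them loose. Areg, Ereg, Hbegf, Btc, Egf and Tgfa encode ligands of the EGF receptor, which is encoded by Egfr. Nrg1 encodes neuregulin 1, a ligand of ErbB3 and ErbB4. ErbB2, encoded by Erbb2, binds no known ligand and acts as the partner of the other receptors, whereas ErbB3 binds neuregulins but has little kinase activity of its own. Ligand binding pairs the receptors and switches on the ERK and PI3K cascades. In the intestine the family is known for driving the growth of crypt cells and the repair of injured epithelium, and the suckling gut also receives EGF with milk.

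The makeup of the family differed between the groups in both directions. Of the 10 members, 6 were called at an adjusted p under 0.05, with the likelihood ratio test of edgeR as with its quasi-likelihood (QL) F test. Among all tested genes 18.5% were called by the first test and 15.4% by the second. The receptor genes Egfr and Erbb3 and the ligand genes Ereg and Nrg1 were higher in KSR23, and the ligand genes Areg and Btc were lower (4 higher and 2 lower). The share of all genes called was 9.73% upward and 8.76% downward with the first test, and 8.47% and 6.91% with the QL test. For the same 6 genes the groups of libraries did not overlap, as for 14.4% of all genes. KSR23 lay above WT in 7.41% of all genes and below it in 6.99%. The median log2 fold change (KSR23 over WT) was 0.679 over the members, 0.027 over all tested genes and 0.681 over 9 epithelial marker genes, whose part in these results was not tested.

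The libraries themselves need to be described before the values. Totals were 25.5 to 32.0 M counts in WT and 31.2 to 60.9 M in KSR23, where M stands for 1e6. Levels are given as CPM, counts per 1e6 after TMM scaling of the totals. In both groups replicates 4 and 5 lay between the other libraries at most genes: each was the highest or the lowest of its group at 11.6% to 20.7% of genes, against 44.9% to 71.4% for replicates 1 to 3 and 40% for libraries that are exchangeable. No 2 libraries were identical. The labels give all 10 as separate samples, so all were kept, and results from replicates 1 to 3 alone are given beside them. Whether replicates 4 and 5 are independent of the other libraries was not tested. The SDs, SEs and p-values given with n = 5 take them as independent. In those 6 libraries 1 member was called by the likelihood ratio test (Ereg, with 3.36% of genes called) and 0 by the QL test (0.812% of genes), although 4 members had an unadjusted p under 0.05 in each. Y-linked genes had 492 to 6347 counts in the WT libraries, 9035 and 4330 in KSR23 replicates 1 and 4, and at most 9 in the other KSR23 libraries. Il12b, the gene of the p40 subunit of IL-23, was called higher in the KSR23 jejunum (log2 fold change 2.32, adjusted p = 0.00364), and Il23a, the gene of the p19 subunit, was not (0.95, adjusted p = 0.27).

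The labelled tissue was checked against cell markers. Epithelial genes (Epcam, Cdh1, Vil1 and 6 others) summed to 2740 to 5610 CPM in WT and 5530 to 9350 CPM in KSR23, and the lowest KSR23 sum was just below the highest WT sum. Of the 9 genes, 8 had a log2 fold change above 0 (median 0.681) and 2 were called higher, Cdh1 and Krt20. Krt20 went from 323 to 388 CPM in WT to 568 to 2280 CPM in KSR23, and Epcam was the 1 gene below 0 (log2 fold change -0.44, adjusted p = 0.686). Genes of squamous keratinocytes were low, at a sum of 8.67 to 19.0 CPM in WT and 5.6 to 8.81 CPM in KSR23. Of these Krt10 was called lower, at 5.26 to 15.6 CPM in WT and 3.02 to 5.06 CPM in KSR23 (log2 fold change -1.26, adjusted p = 0.00466). Krt14, whose promoter drove the cre, did not pass the test there (log2 fold change 0.17, adjusted p = 0.814), and Dsg3 never exceeded 3 counts. Genes of pancreatic acinar cells summed to 74.4 to 113 CPM in WT and 0.956 to 3.16 CPM in KSR23, with 5 of 6 tested genes called lower and Pnlip, Ptf1a and Rbpjl at no more than 3 counts. The duodenal gland genes Muc6, Tff2 and Gkn3 summed to 10.9 to 15.2 CPM in WT and 0.613 to 1.47 CPM in KSR23, and all 3 were called lower. Most of the WT sum was Gkn3 (10.3 to 11.9 CPM), and Muc6 overlapped between the groups (0.0354 to 1.95 CPM in WT, 0 to 0.185 CPM in KSR23). Summed fibroblast genes (1270 to 1920 CPM in WT, 1260 to 1780 CPM in KSR23) and smooth muscle genes (1610 to 3670 and 1680 to 2270 CPM) overlapped between the groups, but 1 gene of each list was called lower, Dcn (log2 fold change -1.10, adjusted p = 0.00315, groups apart) and Acta2 (-0.77, adjusted p = 0.0351). Genes of enteric neurons and glia summed to 74.3 to 95.5 CPM in WT and 25.2 to 39.5 CPM in KSR23, with S100b called lower and Ret higher among 8. S100b, which went from a mean of 48.7 CPM to 0.595 CPM, accounted for the difference between the sums. Macrophage genes summed to 763 to 915 CPM in WT and 561 to 797 CPM in KSR23, and 2 of the 6 tested, Cd68 (log2 fold change -1.06) and C1qb (-0.69), were called lower. The sums overlapped for neutrophil genes (4.2 to 12.5 and 4.3 to 12.1 CPM), of which Elane, at 0 in WT and at most 0.226 CPM in KSR23, was called higher. They also overlapped for lymphocyte genes (27.8 to 37.7 and 17.1 to 41.0 CPM), where 0 of 6 were called or had an unadjusted p under 0.05. Genes of the proximal (890 to 1470 and 1210 to 2100 CPM) and distal small intestine (256 to 294 and 121 to 735 CPM) overlapped in their sums as well. Of these, Cybrd1 of the proximal list was called lower, from 20.2 to 38.4 CPM in WT to 7.67 to 9.65 CPM in KSR23 (adjusted p = 1.75e-07), and Slc10a2 of the distal list was called higher (2.79, adjusted p = 0.0384). Mast cell genes summed to 30.1 to 53.2 CPM in WT and 22.0 to 31.2 CPM in KSR23, with 5 of 7 called lower. Kit was the 1 gene of this list above 0, at 6.09 to 13.6 CPM in WT and 10.8 to 21.7 CPM in KSR23. It was not called. These marker calls are those of the likelihood ratio test, and the QL test did not call Cdh1, Acta2, Elane or Slc10a2, and called 4 acinar, 2 duodenal gland and 4 mast cell genes. In a whole-tissue sample, fewer cells of a type and less RNA per cell cannot be told apart.

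Among the EGFR ligands, Areg, the gene of amphiregulin, fell the most. Its level was 1.61, 6.51, 11.2, 2.88 and 4.17 CPM in WT replicates 1 to 5 and 1.45, 1.52, 0.119, 1.42 and 0.819 CPM in KSR23 replicates 1 to 5. Every KSR23 library was below every WT library, but by little at the border, between 1.52 and 1.61 CPM, and WT itself spread from 1.61 to 11.2 CPM. The mean was 5.27 ± 3.77 CPM in WT and 1.06 ± 0.598 CPM in KSR23 (SD, n = 5 each), a fitted difference of 4.9-fold (log2 fold change -2.29, SE 0.60, 95% interval -3.48 to -1.11, adjusted p = 0.00309; QL adjusted p = 0.0265). KSR23 replicate 3 rested on 3 counts, and without it the log2 fold change was -2.01. Without WT replicate 3, the highest library, it was -1.82. Areg was called in each of these. In replicates 1 to 3 alone it was -2.60 but not called (adjusted p = 0.134; QL adjusted p = 0.328). With a block for the replicate number Areg was not called either (-2.11, likelihood ratio adjusted p = 0.0633).

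Btc, the gene of betacellulin, fell as well. It was at 15.8, 7.78, 9.03, 10.4 and 14.3 CPM in the WT libraries and at 2.66, 7.09, 4.61, 4.06 and 7.0 CPM in the KSR23 libraries. The groups did not overlap, and the libraries of Btc were ordered unlike those of Areg: WT replicate 1 had the highest Btc and the lowest Areg. The mean was 11.5 ± 3.46 CPM in WT and 5.08 ± 1.93 CPM in KSR23 (SD, n = 5 each), 2.26-fold lower (log2 fold change -1.18, SE 0.36, 95% interval -1.88 to -0.47, adjusted p = 0.0109; QL adjusted p = 0.0274). Without KSR23 replicate 4 the call was lost (-1.06, adjusted p = 0.0584), and in replicates 1 to 3 alone Btc was not called (-1.15, adjusted p = 0.42). A block for the replicate number also ended the call (-1.21, likelihood ratio adjusted p = 0.0562). The summed marker genes of pancreatic acinar cells and duodenal glands were, like Areg and Btc, lower in KSR23 than in WT. Within WT, the acinar gene Prss2 (11.2 CPM) and the gland gene Muc6 (1.95 CPM) were highest in replicate 1. There Btc was highest and Areg lowest, whereas the marker genes Sycn and Gkn3 were highest in other WT replicates. The part of these tissues in the results for Areg and Btc was not tested.

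Ereg, the gene of epiregulin, moved the other way and by the most of all members. It was at 3.34, 2.9, 1.61, 2.74 and 3.6 CPM in WT and at 5.32, 28.0, 20.0, 13.9 and 27.1 CPM in KSR23. WT libraries were alike and low, whereas the KSR23 libraries were all higher and spread widely, with replicate 1 closest to WT. The mean rose from 2.84 ± 0.767 to 18.9 ± 9.49 CPM (SD, n = 5 each), 6.63-fold (log2 fold change 2.73, SE 0.43, 95% interval 1.88 to 3.58, adjusted p = 1.64e-07; QL adjusted p = 0.00135). Replicates 1 to 3 alone gave 2.80, which the likelihood ratio test called (adjusted p = 0.00888) and the QL test did not (adjusted p = 0.132). The KSR23 libraries with Y-linked counts, replicates 1 and 4, had the lowest Ereg, and with the Y-linked share as a covariate the log2 fold change was 1.87, still called. Counts of Ereg may include reads of Gm19610, which overlaps 3.42% of its exon bases.

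**Figure D1:**
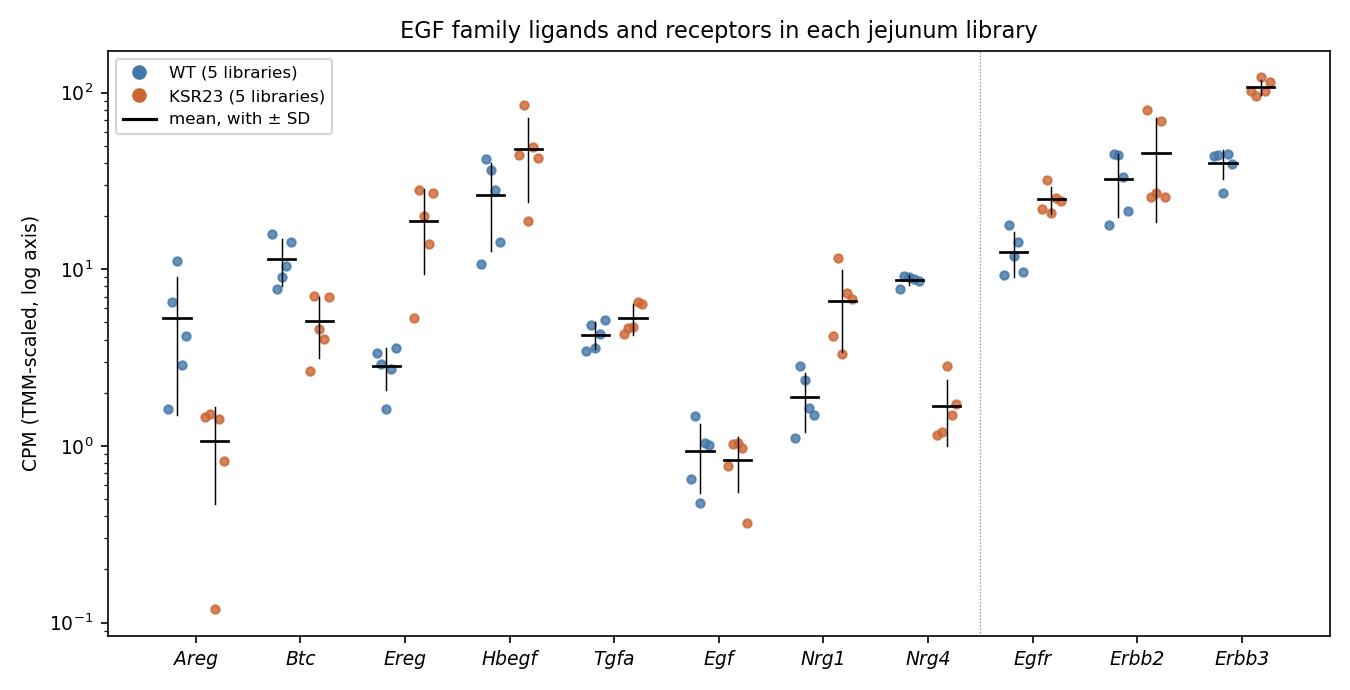
Level of each EGF family gene in every library, in TMM-scaled CPM on a log axis, with WT libraries in blue, KSR23 libraries in orange, the group mean as a bar and the SD (n = 5) as a line; ligands stand left of the dotted line and receptors right. Areg, Btc and Nrg4 lie lower in KSR23 and Ereg, Nrg1, Egfr and Erbb3 higher, each without overlap, whereas the groups overlap in Hbegf, Tgfa, Egf and Erbb2.

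Areg and Ereg are neighbours in the genome, although they moved in opposite directions. In build mm10 (GENCODE M21 annotation) Ereg lies at chr5:91074622-91093646 and Areg at chr5:91139599-91148432, both on the plus strand and 46.0 kb apart. Epgn, the gene of epigen, lies 39.4 kb before Ereg, at chr5:91027464-91035215. Btc follows 209 kb after Areg, at chr5:91357261-91402994 on the minus strand. Thus the 4 genes of this ligand cluster held 1 gene that rose, 2 that fell and 1, Epgn, with at most 2 counts in WT and 12 in KSR23.

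Promoter sequences were matched by symbol for 6 of the 10 members, and not for Ereg, Nrg1, Erbb3 and Hbegf. The 250 bases before the start are shown for the 3 of them that were called, from RefSeq on build GRCm38.p6, read 5′ to 3′ on the strand of the gene. They serve to compare the neighbours that fell, Areg and Btc, with the receptor gene that rose, Egfr. Areg is at chr5:91139349-91139598 (plus strand), Btc at chr5:91402995-91403244 (minus strand) and Egfr at chr11:16751953-16752202 (plus strand). Capitals mark the only match of 3 motifs, searched on both strands in all windows of the 6 members.
Areg: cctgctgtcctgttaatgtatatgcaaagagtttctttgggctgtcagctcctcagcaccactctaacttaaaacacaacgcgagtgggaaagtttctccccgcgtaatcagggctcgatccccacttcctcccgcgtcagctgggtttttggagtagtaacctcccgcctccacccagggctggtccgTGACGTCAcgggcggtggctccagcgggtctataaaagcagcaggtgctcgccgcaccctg
Btc: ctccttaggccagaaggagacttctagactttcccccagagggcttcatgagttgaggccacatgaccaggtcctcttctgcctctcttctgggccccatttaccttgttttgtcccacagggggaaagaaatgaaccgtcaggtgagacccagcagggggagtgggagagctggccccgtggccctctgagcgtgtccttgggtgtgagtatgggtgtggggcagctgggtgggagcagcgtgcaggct
Egfr: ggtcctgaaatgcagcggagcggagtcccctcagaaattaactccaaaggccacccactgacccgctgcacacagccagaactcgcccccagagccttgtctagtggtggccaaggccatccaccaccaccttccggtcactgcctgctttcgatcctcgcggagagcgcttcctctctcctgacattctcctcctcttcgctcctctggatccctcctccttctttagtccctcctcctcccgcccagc
The capitals are a cAMP response element, TGACGTCA, whose 5′ end lies 61 bases before the Areg start. Of 32851 mouse promoters of this length, 1.55% hold these letters. The AP-1 motif TGANTCA (6.75% of promoters) and the STAT motif TTCNNNGAA (7.02%) were in no window of these members. GC content of the windows shown was 57.2%, 59.6% and 60.8%. A match is a description of the sequence, and binding was not measured.

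The other ligands of EGFR did not pass the test. Hbegf, which encodes heparin-binding EGF-like growth factor, was at 10.7, 42.0, 36.3, 28.3 and 14.2 CPM in WT and at 44.4, 85.4, 18.8, 49.1 and 42.9 CPM in KSR23. All KSR23 libraries but replicate 3 were above every WT library. The log2 fold change was 0.87 (SE 0.46, adjusted p = 0.187), with a 95% interval of -0.03 to 1.77 that leaves room for a rise of more than that of Egfr. Tgfa, the gene of transforming growth factor alpha, was at 3.47, 4.81, 3.6, 4.29 and 5.18 CPM in WT and at 4.28, 4.64, 4.73, 6.57 and 6.38 CPM in KSR23, with a narrower interval of -0.25 to 0.89 (log2 fold change 0.32, SE 0.29, adjusted p = 0.497). Egf itself was scarce. It was at 0.65, 1.49, 0.477, 1.04 and 1.01 CPM in WT and at 0.768, 1.03, 1.03, 0.974 and 0.367 CPM in KSR23, from 13 to 55 counts a library. The groups overlapped, with KSR23 replicate 5 below every WT library (log2 fold change -0.16, SE 0.44, 95% interval -1.02 to 0.69, adjusted p = 0.85). The sign changed when single libraries were left out. Egf lies on chromosome 3 and shares 9.82% of its exon bases with other annotated genes.

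Because levels of different genes can be compared only per length, counts were divided by the exon length in kb. On this scale, of counts per kb of exon and per 1e6, the WT ligands were ordered Hbegf (5.43), Areg (4.34), Btc (2.54), Ereg (0.688), Tgfa (0.658), Nrg1 (0.182) and Egf (0.0827) by their means. Hbegf and Areg overlapped between libraries, as did Areg and Btc, Ereg and Tgfa, and Nrg1 and Egf. In KSR23 the order was Hbegf (9.95), Ereg (4.57), Btc (1.12), Areg (0.876), Tgfa (0.82), Nrg1 (0.642) and Egf (0.074). Each neighbour overlapped the next except Nrg1 and Egf, although Ereg exceeded Btc in all 5 libraries. Ereg thus stood second to Hbegf in KSR23, and level with Tgfa in WT.

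Taking the 6 EGFR ligands together as 100%, Areg made up 15.7% to 46.8% of their length-scaled counts in WT libraries and 0.92% to 9.2% in KSR23 libraries. Btc made up 9.93% to 41.5% and 4.53% to 9.56%. Ereg made up 1.99% to 9.6% in WT and 9.93% to 45.5% in KSR23. None of these 3 shares overlapped between the groups. Hbegf, with a mean share of 37.9% in WT and 55.7% in KSR23, overlapped. These shares restate the levels and carry no further test.

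**Figure D2:**
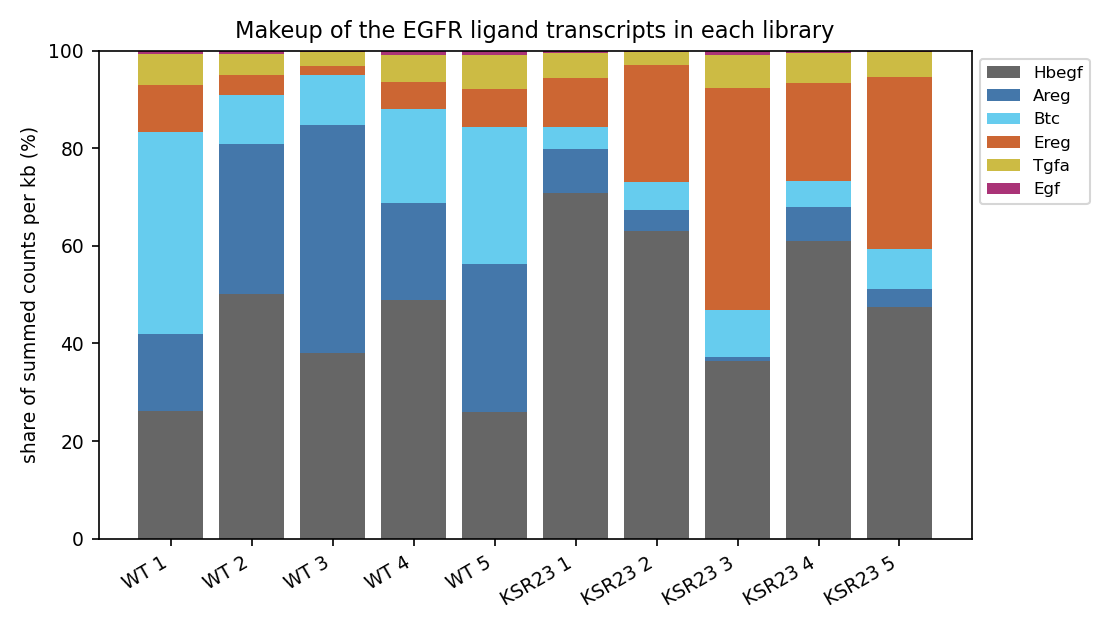
Share of each of the 6 EGFR ligand genes in their summed counts per kb of exon (vertical axis, percent), 1 bar per library, WT replicates 1 to 5 and then KSR23 replicates 1 to 5. The Areg and Btc segments shrink from WT (means 28.7% and 21.8%) to KSR23 (5.03% and 6.67%), and the Ereg segment grows from a mean of 5.78% to 27.0%.

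Neuregulin transcripts, whose products bind ErbB3 and ErbB4, also split. Nrg1 was at 1.11, 2.83, 2.35, 1.64 and 1.5 CPM in WT and at 4.2, 11.6, 3.3, 7.31 and 6.83 CPM in KSR23. All KSR23 libraries were above all WT libraries, and replicate 2 was the highest in both groups. The mean rose from 1.89 ± 0.69 to 6.65 ± 3.25 CPM (SD, n = 5 each), 3.52-fold (log2 fold change 1.82, SE 0.41, 95% interval 1.01 to 2.62, adjusted p = 0.000319; QL adjusted p = 0.00806). In replicates 1 to 3 alone it was 1.64 and not called (adjusted p = 0.236). Nrg1 spans chr8:31814551-32884029 on the minus strand, and 4.66% of its exon bases overlap Gm26578.

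Nrg4, a neuregulin gene outside the 10 members whose product binds ErbB4, went the other way. It was at 7.77, 9.19, 9.1, 8.87 and 8.56 CPM in WT and at 1.15, 1.19, 2.82, 1.51 and 1.72 CPM in KSR23. The WT libraries were close to each other, the KSR23 libraries spread more, and the groups were far apart. The mean fell from 8.70 ± 0.574 to 1.68 ± 0.681 CPM (SD, n = 5 each), 5.23-fold (log2 fold change -2.39, SE 0.32, adjusted p = 7.75e-11; QL adjusted p = 0.000221). Replicates 1 to 3 alone gave -2.31, which the likelihood ratio test called (adjusted p = 0.00916) and the QL test did not (adjusted p = 0.103). Of its exon bases 8.97% overlap Fbxo22 and Gm15625, so some counts may be shared.

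The rest of the family was at the edge of detection. Erbb4, the gene of the receptor for Nrg4, had 0 counts in all 10 libraries, where 3 counts would correspond to 0.0427 to 0.119 CPM. Epgn, Nrg2 and Nrg3 never exceeded 14 counts, and none was called (adjusted p = 0.488, 0.114 and 0.662). Of the 4 tested genes in this group, Nrg4 was the only one called.

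The receptor genes were higher where they changed. Erbb3 was at 43.7, 44.4, 27.2, 45.0 and 39.7 CPM in WT and at 102, 95.6, 122, 102 and 116 CPM in KSR23. The lowest KSR23 library exceeded the highest WT library by far, and the spread within KSR23 was small. The mean rose from 40.0 ± 7.45 to 108 ± 11.0 CPM (SD, n = 5 each), 2.69-fold (log2 fold change 1.43, SE 0.25, 95% interval 0.93 to 1.92, adjusted p = 1.22e-06; QL adjusted p = 0.000603). Replicates 1 to 3 alone gave 1.51, which missed the threshold (adjusted p = 0.0746).

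Egfr, the receptor gene for the EGFR ligands above, rose less. It was at 9.29, 17.9, 11.9, 14.2 and 9.65 CPM in WT and at 22.0, 31.9, 20.7, 25.4 and 24.5 CPM in KSR23. The groups did not overlap, the nearest libraries being WT replicate 2 and KSR23 replicate 3. The mean rose from 12.6 ± 3.58 to 24.9 ± 4.32 CPM (SD, n = 5 each), 1.98-fold (log2 fold change 0.98, SE 0.30, 95% interval 0.40 to 1.57, adjusted p = 0.00926; QL adjusted p = 0.0165). The call was lost without WT replicate 5 (0.90, adjusted p = 0.0515), with the Y-linked share as a covariate (0.94, adjusted p = 0.0766) and in replicates 1 to 3 alone (0.97, adjusted p = 0.472).

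Erbb2 did not differ beyond the spread between libraries. It was at 17.8, 45.1, 44.6, 33.4 and 21.4 CPM in WT and at 80.1, 25.6, 26.9, 69.0 and 25.5 CPM in KSR23. KSR23 replicates 1 and 4, the KSR23 libraries with Y-linked counts, were above every WT library, and the other 3 lay within the WT range. The log2 fold change was 0.48 (SE 0.44, 95% interval -0.37 to 1.34, adjusted p = 0.494). With the Y-linked share as a covariate it was 0.87 (adjusted p = 0.179).

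Per kb of exon, Erbb3 (6.64 counts per kb and per 1e6) and Erbb2 (6.23) were level in WT and both stood clear of Egfr (1.11). In KSR23 the order was Erbb3 (17.9), Erbb2 (8.71) and Egfr (2.2), and each stood clear of the next. The epithelial marker genes ran upward with these receptors, 8 of 9 being above 0 with a median log2 fold change of 0.681, although only Krt20 and Cdh1 were called. Cdh1, the gene of E-cadherin, rose by 1.11 on the log2 scale (SE 0.38, adjusted p = 0.026; QL adjusted p = 0.0572). Erbb3 is also made by glia, whose marker genes differed in sign: S100b was called lower, and Gfap (log2 fold change 1.92, adjusted p = 0.0789) and Sox10 (0.75, adjusted p = 0.529) were not called. The part of these cell types in the rise of Erbb3 and Egfr was not tested.

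**Figure D3:**
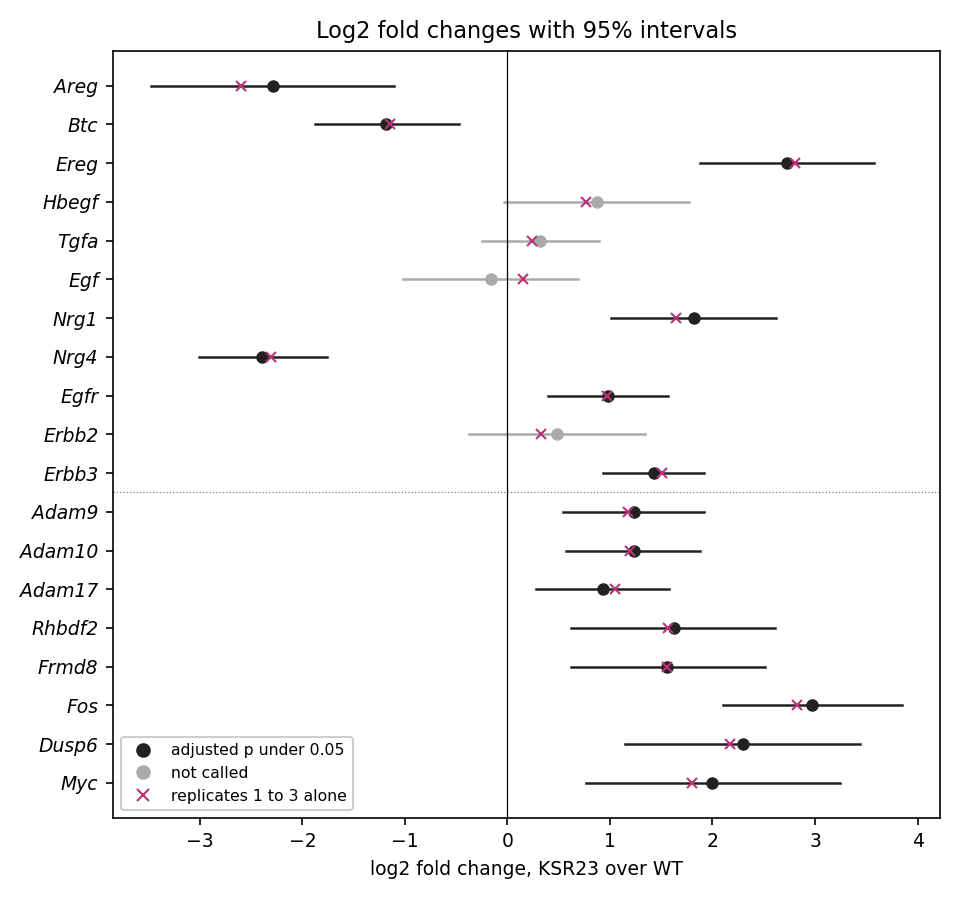
Log2 fold change of each named gene, KSR23 over WT (horizontal axis), with its 95% interval, in black where the adjusted p was under 0.05 and grey otherwise; crosses are the values from replicates 1 to 3 alone. Family genes stand above the dotted line and genes of ligand release and ERK response below it; Egf is the gene whose cross lies on the other side of 0.

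To determine if genes of ligand release moved with the ligands, 11 genes of shedding and trafficking were examined. Of these, 5 were called higher and 0 lower by both edgeR tests (9.73% and 8.47% of all genes were called higher), with a median log2 fold change of 0.648. Adam10, the sheddase of betacellulin and EGF, was at 30.7, 72.7, 41.7, 54.5 and 34.9 CPM in WT and at 133, 132, 60.0, 127 and 95.9 CPM in KSR23. Only KSR23 replicate 3 lay within the WT range (log2 fold change 1.23, SE 0.33, adjusted p = 0.00323; QL adjusted p = 0.0158). Adam9, another membrane protease, gave 1.23 (SE 0.35, adjusted p = 0.00609) and again KSR23 replicate 3, at 35.1 CPM, lay within the WT range of 20.4 to 43.2 CPM.

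Adam17, the main sheddase of amphiregulin, epiregulin, TGF-alpha and HB-EGF, was at 35.4, 28.3, 15.3, 29.7 and 28.0 CPM in WT and at 36.8, 44.1, 78.7, 38.5 and 62.3 CPM in KSR23. The groups were apart by a narrow gap, and KSR23 replicate 3, where Adam10 was lowest, was the highest. The log2 fold change was 0.93 (SE 0.33, adjusted p = 0.0334; QL adjusted p = 0.0465). It was 0.63 and not called with the Y-linked share as a covariate (adjusted p = 0.392), and the call was lost without any of WT replicates 3, 4 or 5 or KSR23 replicates 3 or 5 (adjusted p = 0.0546 to 0.101) or with library totals alone in place of TMM (0.78, adjusted p = 0.0708).

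Rhbdf2 and Frmd8 encode iRhom2 and the protein FRMD8, which carry ADAM17 to the cell surface and hold it there. Rhbdf2 was at 3.5, 13.1, 7.93, 9.45 and 4.54 CPM in WT and at 24.6, 41.8, 4.85, 24.3 and 22.7 CPM in KSR23. Frmd8 was at 8.36, 30.4, 20.5, 20.1 and 12.2 CPM in WT and at 54.1, 103, 13.9, 55.2 and 44.9 CPM in KSR23. In both genes KSR23 replicate 3 lay within the WT range and the other 4 KSR23 libraries above it. Log2 fold changes were 1.62 for Rhbdf2 (SE 0.51, adjusted p = 0.0147) and 1.56 for Frmd8 (SE 0.48, adjusted p = 0.0127). Without WT replicate 5 only 2 of the 11 genes were called, and without KSR23 replicate 2 only 3. With the Y-linked share as a covariate Adam9 and Adam10 alone were called, and neither Rhbdf2 (adjusted p = 0.0657) nor Frmd8 (adjusted p = 0.0704). In replicates 1 to 3 alone neither test called any (0 of 11, with 2 at an unadjusted p under 0.05 by each).

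Downstream of the receptors, 20 genes commonly induced by ERK signalling were listed. Of these, the likelihood ratio test called 6 higher and 0 lower and the QL test called 4 higher, with a median log2 fold change of 0.547. These tests called 9.73% and 8.47% of all genes higher, so 4 of 20 by the QL test is closer to the background than 6 of 20. Fos, which encodes a subunit of AP-1, was at 9.6, 22.4, 22.5, 14.2 and 12.2 CPM in WT and at 50.0, 259, 65.6, 105 and 155 CPM in KSR23. All KSR23 libraries were above all WT libraries. It rose by 2.97 on the log2 scale (SE 0.45, adjusted p = 3.91e-08; QL adjusted p = 0.00127), and it was the 1 gene of this list called in replicates 1 to 3 alone (likelihood ratio adjusted p = 0.0132).

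Dusp6, the gene of a phosphatase that switches ERK off, was at 8.85, 47.1, 30.6, 29.7 and 12.5 CPM in WT and at 73.6, 283, 22.5, 133 and 121 CPM in KSR23. KSR23 replicate 3 lay within the WT range. The log2 fold change was 2.30 (SE 0.58, adjusted p = 0.00227; QL adjusted p = 0.0251), and with the Y-linked share as a covariate it was not called (1.98, adjusted p = 0.0536). Myc, a growth-promoting transcription factor gene, rose from 9.55 ± 6.32 to 38.3 ± 25.4 CPM (SD, n = 5 each; log2 fold change 2.0, SE 0.63, adjusted p = 0.0168), but not by the QL test (adjusted p = 0.0581), with the Y-linked share as a covariate (0.0768), without WT replicate 5 (0.0646) or without KSR23 replicate 2 (0.0694). Dusp4, Etv4 and Plaur were the other 3 called, with log2 fold changes of 1.69, 1.93 and 1.33, of which the QL test did not call Dusp4 (adjusted p = 0.0766). They were named after their values were seen.

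In the lists of receptor feedback and turnover (16 genes) and of the signalling core (23 genes) the likelihood ratio test called 0, where it called 18.5% of all genes. The difference between lists was not tested. At an unadjusted p under 0.05 there were 2 and 3 genes. The QL test and DESeq2 called 0 feedback genes and 1 core gene each, Grb2, the adaptor that links receptors to Ras, which was lower in all 5 KSR23 libraries than in any WT library (log2 fold change -0.72, SE 0.28, adjusted p = 0.0517; QL adjusted p = 0.042) and was named after its values were seen. Median log2 fold changes were 0.361 and 0.237.

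**Figure D4:**
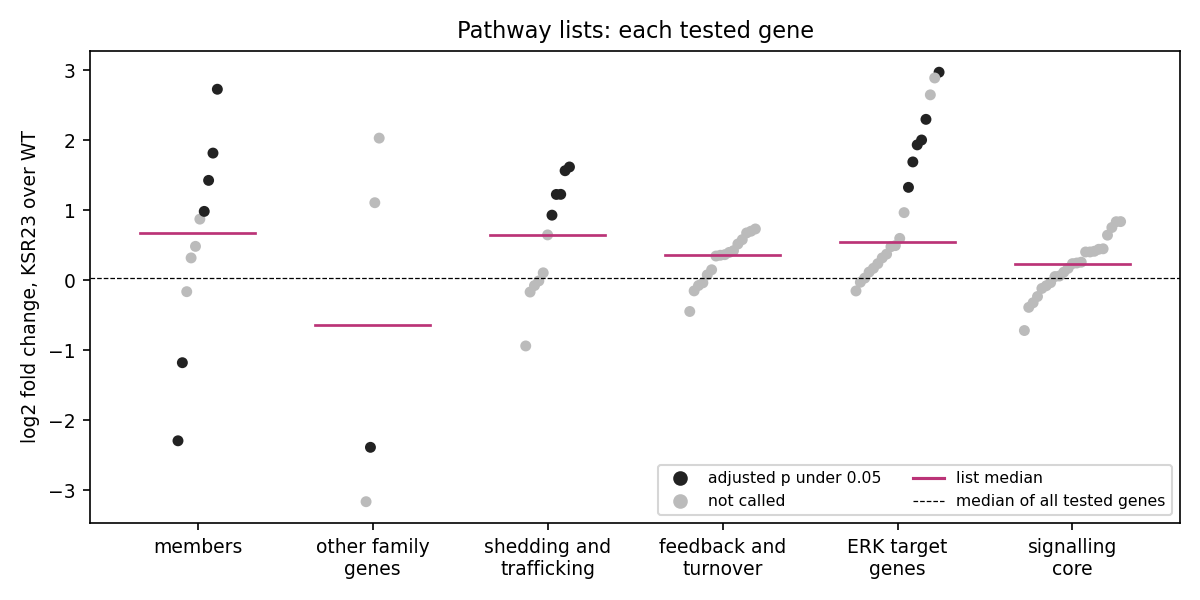
Log2 fold change, KSR23 over WT (vertical axis), of each tested gene in the 6 lists, 1 point per gene in order of its value, in black where the adjusted p was under 0.05, with the median of each list as a line and the median of all tested genes (0.027) dashed. Black points lie above and below 0 among the members, above 0 in the shedding and ERK target lists, and are absent from the feedback and core lists.

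The genes whose log2 CPM ran most like that of a called member over the 10 libraries were found among 12888 genes with a mean of at least 1 CPM, by Pearson's r as a description. For Areg they were Eif1b (0.988), Pmm1 (0.983) and Chd3os (0.983). Ereg ran most like Slc5a3 (0.993), Slc30a7 (0.992) and Ddx21 (0.992). Those of Btc were Psen2 (0.976), Aldh1a1 (0.960) and Ces2g (0.956). Erbb3 had Dnah17, Canx and Zdhhc15 (0.992 each). Nrg1 had Zdhhc20 (0.986), Stard3 (0.984) and Ssr1 (0.984), and Egfr had Tdrd7 (0.989), Pik3r5 (0.985) and Poldip3 (0.984). Each r includes the difference between the groups and the libraries that the genes share.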

How the data were processed

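Libraries were made from picograms of RNA by oligo-dT priming and PCR, and sequenced from one end for 75 bases. Without molecular identifiers, floors cover counting error only. The authors aligned reads to mm10 with TopHat2 2.1.0 and deposited raw counts per gene from HTSeq 0.6.1p1. Reads with several alignments (8.62 to 17.1 M per library) entered no gene, and the strand setting is not given in the sources used here, so overlapping genes may share counts.

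Groups and replicate numbers came from the sample titles. The 17632 genes that reached 5 counts in some library were scaled by TMM, fitted in edgeR 4.0.16 (R 4.3.3) over all 10 libraries and compared by the likelihood ratio test, with the quasi-likelihood (QL) F test beside it. P-values were adjusted over all tested genes (Benjamini-Hochberg), and 95% intervals of log2 fold changes were taken from the SE by the normal approximation. DESeq2 1.42.0, other scalings, filters and subsets of libraries were alternatives. Exon lengths are from GENCODE M21.

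The named genes were all members, the other family genes, the called shedding genes, up to 3 called genes in each direction for each other list that reached 5 counts throughout the higher group, and the 3 genes most like each called member. Members and lists were chosen with earlier results of these data known. The fit was checked on simulated counts, drawn as independent libraries with less spread than in these data.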

Additional observations from a re-analysis of the deposited data

Results flagged for a closer look

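Each named gene was examined for a library that stood apart from the other 4 of its group, by the gap to the nearest library over the range of the group on a log scale (Dixon's ratio). Of 41 groups, 6 had such a library, and chance gives about 1 in 20, or 2.05. Areg was at 0.119 CPM in KSR23 replicate 3, where it rested on 3 counts. Rhbdf2 (4.85 CPM) and Myc (4.21 CPM) were low in the same library. Erbb3 (27.2 CPM) and Adam17 (15.3 CPM) were low in WT replicate 3. Nrg2 was at 0.248 CPM in WT replicate 2, from 7 counts.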

How the results depend on the processing

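Of the 6 member calls, 6 were made under each of the QL test, DESeq2, RLE size factors, library totals alone and no filter, 5 with the Y-linked share as a covariate, and 5 when 5 or more counts were required in every library, which removed Areg and left 1 member lower. Leaving out 1 library gave 5 to 6 members called, 3 to 4 higher and 1 to 2 lower, 2 to 6 shedding genes, 4 to 7 ERK target genes, 0 to 1 core genes and 2370 to 3802 genes in all. Replicates 1 to 3 alone called 1 member (1 higher, 0 lower), 0 shedding genes, 1 ERK target gene and 579 genes in all. There the QL test called 0 members (0 higher, 0 lower), 0 other family genes, 0 shedding genes, 0 ERK target genes and 140 genes in all. Fewer libraries also lower the counts of calls. With the Y-linked share as a covariate 2 shedding and 2 ERK target genes were called. The signalling core had 1 called gene by the QL test, DESeq2, RLE size factors, library totals alone and the stricter filter.

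The log2 fold change of Egf changed sign in replicates 1 to 3 alone (0.15, also by the QL test), with the Y-linked share as a covariate (0.05) and without single libraries (-0.33 to 0.11). No other member, and none of the 9 other named genes refitted, changed sign under any alternative. Egf rested on 13 to 55 counts a library. The cause of these differences was not tested.

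Same-numbered libraries of the groups share only a number: their deviations correlated at -0.69, 0.37, -0.62, 0.28 and 0.41, and not every library correlated best with its own number. With the replicate block 4 members were called by either test (4 higher, 0 lower), and Areg and Btc were not. The block fits called 4 shedding genes by likelihood ratio (not Adam17, adjusted p = 0.177) and 1 by quasi-likelihood. They called 4 and 1 ERK target genes (Myc not among them, with adjusted p = 0.0514 and 0.157), and 2202 and 1184 genes in all.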

Other observations

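The members did not take their extremes evenly over the libraries. In WT replicate 1, 6 of the 10 members (Areg, Hbegf, Tgfa, Nrg1, Egfr and Erbb2) were at the lowest level of the group and Btc was at the highest. In WT replicate 2, 5 members were at their highest. In KSR23 replicate 2, 6 members (Areg, Ereg, Hbegf, Btc, Nrg1 and Egfr) were at their highest, and in KSR23 replicate 3, 4 members (Areg, Hbegf, Nrg1 and Egfr) were at their lowest while Erbb3 and Egf were at their highest. Cdh1, the epithelial gene of E-cadherin, was also lowest in WT replicate 1 (125 CPM) and KSR23 replicate 3 (196 CPM) and highest in WT replicate 2 (360 CPM) and KSR23 replicate 2 (641 CPM). Krt20, a gene of mature surface epithelium, was not: it was highest in WT replicate 1 (388 CPM) and KSR23 replicate 3 (2280 CPM). Vil1 was highest in the same libraries (520 and 1080 CPM), whereas Krt8 was lowest there, like Cdh1 (164 and 185 CPM). The epithelial list was thus split.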
